A study of Drosophila melanogaster with 13 samples.

Results

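Proteins destined for secretion enter the endoplasmic reticulum (ER) through a membrane channel and leave it in coated vesicles, and the genes described here encode that machinery. They were chosen by symbol from a list of 42 genes for the signal recognition particle (SRP) and its receptor, the Sec61 translocon, signal peptidase, the COPII and COPI vesicle coats, the p24 cargo receptors and the KDEL receptor. Of the 16727 genes in the count table, 41 carried a listed symbol, and 39 of these had counts and were tested in every comparison. RNA of the D1, miP and wild-type groups came from sorted secondary cells, a minor secretory cell type of the male accessory gland. RNA of the IP groups was precipitated, and it also held markers of other cell types, as given below. All groups were Drosophila melanogaster males aged 5 to 11 days. The D1 group (3 libraries) had the genotype D1:GAL4, UAS-GFP; iab-6cocuD1 and the miP group (3 libraries) D1:GAL4, UAS-GFP; delta MSAmiP. In the ribosome immunoprecipitations (IPs; 3 libraries) the genotype was UAS GFP-RPL10Ab, D1:GAL4, in the control IP (1 library) UAS GFP, D1:GAL4, and in the wild-type group (3 libraries) D1:GAL4, UAS-GFP. All 5 groups therefore carry the D1:GAL4 driver, which switches on the GFP by which cells were sorted or RNA was precipitated, and which shares the name D1 with the mutant allele without being that allele. The D1 and miP groups each stand for 1 mutant line of the Bithorax complex, and the IP groups were precipitated with an anti-GFP antibody rather than sorted.

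SRP binds the signal sequence of a nascent protein and, through its receptor, brings the ribosome to the Sec61 channel, where signal peptidase removes the signal sequence. COPII coats then bud cargo from ER exit sites towards the Golgi apparatus, and COPI coats return escaped ER proteins and cargo receptors. These roles were worked out largely in yeast and mammalian cells, and a cell type with a heavy secretory load, such as an accessory gland cell, depends on every one of these steps. In the fly, CrebA is the transcription factor best known for raising the expression of such genes in secretory tissues.

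Of the listed genes, 3 gave no usable value. Sec12 did not occur under that symbol, and CG9175, for which RefSeq's gene table gives Sec12 as a synonym, was not counted as a member. Spase12, an accessory subunit of signal peptidase, was at 0 in all 13 libraries, and 100% of its exonic bases lie within exons of CG2006 on the opposite strand. The p24 family gene p24-2 was also at 0 in all 13, and 99.47% of its exonic bases overlap Unc-115b, on the same strand and itself at 0. Reads over the overlap of Spase12 are ambiguous to an unstranded count, and the strand setting is not given. Reads over the overlap of p24-2 are ambiguous to a stranded count as well. These zeros therefore cannot be read as levels. Whether they come from the counting or from absent expression was not tested. Spase22-23, Sec63, twr and Srp14 share 30.58, 60.7, 44.33 and 17.67% of their exonic bases with other genes, which can lower their counts or lend them reads, so levels of these genes are uncertain. The main cell marker Acp95EF, which lies wholly inside Spase22-23 on the opposite strand, was at 0 in every library.

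Library totals were 19389510 to 21325710 counts in D1, 18209428 to 20819855 in miP, 11175963 to 21400681 in the ribosome IPs, 3701155 in the control IP and 21184162 to 26088798 in wild type. The 39 members took 0.798 to 1.25% of the counts in D1, 0.454 to 0.603% in miP, 0.520 to 0.591% in the ribosome IPs, 0.510% in the control IP and 0.464 to 0.483% in wild type. Replicate 1 stood apart in both mutants and in the ribosome IPs. The mean chi-square per gene between 2 libraries is near 1 for counting noise alone. It was 687 and 748 between D1 replicate 1 and the other D1 libraries and 29.2 between those. In miP it was 265 and 208 against 51.2, and in the ribosome IPs 158 and 154.8 against 45.65. Among wild-type libraries it was 10.2 to 24.3. The D1 label was checked on abd-A, a Hox gene of the Bithorax complex, which had 1, 0 and 2 counts in the D1 libraries and 4116, 4274 and 5481 in wild type. All 8 secondary cell markers had counts in every group, and their summed level was 1.97e+05 to 2.47e+05 CPM (counts scaled to a library total of 1e+06) in D1 and 2.67e+05 to 2.81e+05 CPM in wild type. Markers of neurons (4 of 4 with counts) summed to 108 to 143 CPM in D1 and 29.98 to 35.2 CPM in wild type, markers of muscle sheath (10 of 10) to 149.6 to 174 and 73.03 to 119 CPM, and markers of main cells (9 of 10, all but Acp95EF) to 446 to 1257 and 80.1 to 573 CPM. Testis and sperm markers stayed at or under 2.98 CPM in sorted cells. Fewer cells of a type, less RNA per cell and lower expression of the markers themselves cannot be told apart in bulk RNA of this kind.

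The machinery was among the more abundant mRNAs of wild-type secondary cells. Levels were compared between genes as unscaled CPM per kb of exonic length, and the median of the 39 members was 55.6, against 4.93 over the 6634 genes with a mean of at least 1 CPM. Members lay at a median percentile of 92.8 among those genes, and the lowest, Sec16, at 48.2. The same median percentile was 95.8 in D1, 93.8 in miP, 81.9 in the ribosome IPs and 80.9 in the control IP, each among that group's own genes at 1 CPM.

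Within wild type, levels differed more between the parts of the machinery than between the 3 libraries. Exonic length also differed, from 464 nt for Srp14 to 9707 nt for Sec16, and its part in these levels was not tested. The 3 counted signal peptidase subunits had a median of 133 CPM per kb, led by the catalytic subunit twr at 405 ± 14.7 (SD, n = 3), the highest of all members. The p24 cargo receptors and the KDEL receptor had a median of 81.2 CPM per kb, between bai at 217 ± 23.5 and opm at 30.9 ± 0.473. The 6 translocon genes lay close together, with a median of 66.2 and a range from Sec61beta at 77.7 ± 3.74 to Sec63 at 30.2 ± 2.35. COPI genes had a median of 65.9 CPM per kb, from the coat-recruiting GTPase Arf79F at 157 ± 9.57 to the subunit gammaCOP at 30.6 ± 3.44. SRP and receptor genes had a median of 32.5 CPM per kb, from Srp14 at 71.4 ± 7.53 to Srp68 at 19.7 ± 0.865. COPII genes spread most widely, with a median of 21.1 CPM per kb: the GTPase Sar1 stood at 117 ± 3.05 and the exit site scaffold Sec16 at 4.64 ± 0.667, and the cargo adaptor Sec24CD at 22.0 ± 2.37 was above its paralog Sec24AB at 8.18 ± 0.164 in each of the 3 libraries.

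**Figure D1:**
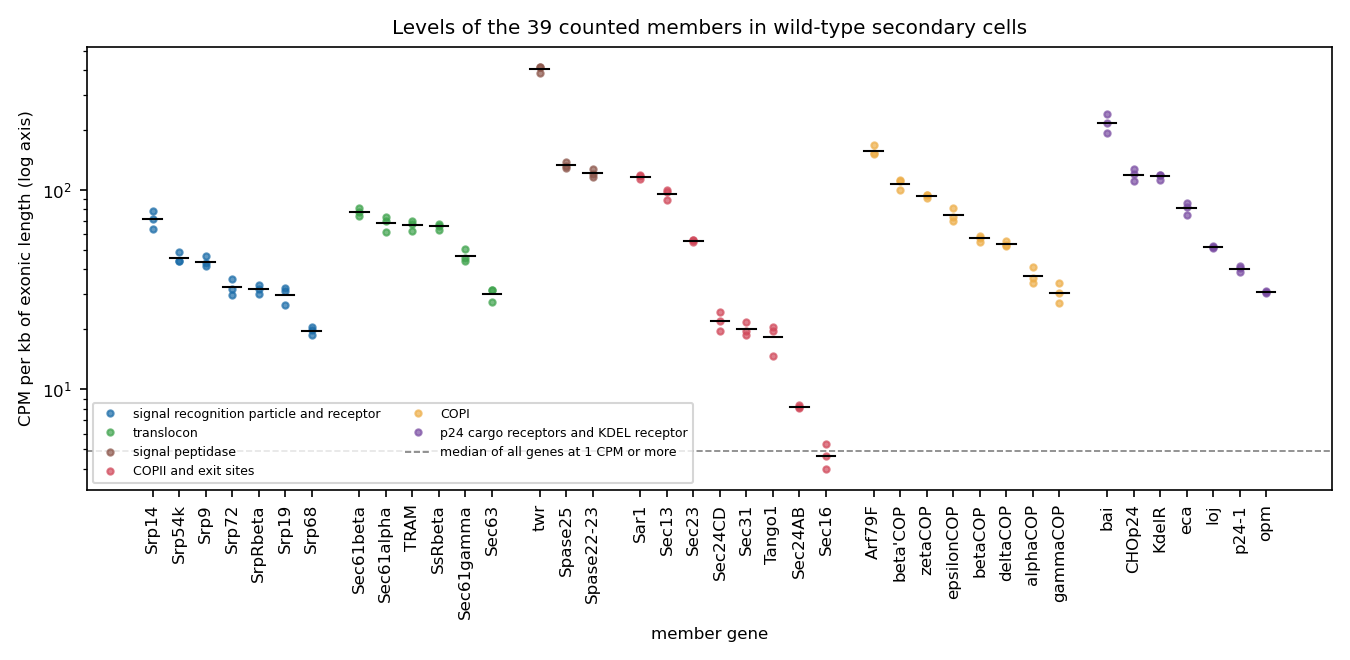
Levels of the 39 counted members in wild-type secondary cells, as unscaled CPM per kb of exonic length on a log axis. Points are the 3 libraries, bars their mean, colours the roles, and the dashed line marks the median of 4.93 over 6634 genes; of the members only Sec16 has its mean under that line.

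In D1 cells 4 of the 39 members rose against wild type and none fell. They were Srp9 of the SRP, the channel subunit Sec61alpha, Sec63, which couples the channel to the chaperone BiP in the ER lumen, and the COPI subunit deltaCOP. The 4 calls are 10.3% of the members, where 6.14% of the 8222 genes tested were higher in D1 and 3.62% lower (edgeR's quasi-likelihood test, adjusted p under 0.05). The median log2 fold change was 0.45 over the members and 0.004 over all genes tested, with 29 of the 39 members above 0. All 3 D1 libraries lay above all 3 wild-type libraries for 13 members and below them for 3, where 16.3 and 15.2% of all genes tested did so. On the same TMM scale, neuron markers summed to 68.5 to 149.8 CPM in D1 and 36.9 to 42.4 in wild type, without overlap. Muscle sheath markers summed to 107 to 165 in D1 and 87.8 to 146 in wild type, with overlap. Main cell markers summed to 282 to 1388 in D1 and 96.3 to 718 in wild type, with overlap. Secondary cell markers summed to 1.459e+05 to 2.175e+05 in D1 and 3.211e+05 to 3.491e+05 in wild type, without overlap. The part of cell content in the differences of the members was not tested.

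The SRP and its receptor gave 1 call. Values per library are CPM after TMM scaling (normalised CPM), in the order of replicates 1, 2 and 3. Srp9, which with Srp14 forms the part of the particle that slows translation, (chromosome 3L, 7936373 to 7937258, plus strand, dm6 assembly) had 124, 81.4 and 65.5 normalised CPM in D1, against 41.2, 43.6 and 47.9 in wild type, a log2 fold change of 1.03 ± 0.26 (SE; adjusted p = 0.0360). The groups did not overlap, and replicate 1 was the highest D1 library. Its partner Srp14 had 82.1, 46.6 and 30.5 normalised CPM in D1, against 35.7, 45.1 and 41.5 in wild type and overlapped (adjusted p = 0.590). Srp72, which with Srp68 completes the protein core, had 63.2, 123 and 122 normalised CPM in D1, against 77.3, 94.1 and 86.3 in wild type. Here replicate 1 was the lowest D1 library, under every wild-type value. SrpRbeta, the membrane-anchored receptor subunit, had 39.9, 23.1 and 27.1 normalised CPM in D1, against 45.9, 44.5 and 43.0 in wild type, with every D1 library below wild type, and missed the threshold (log2 fold change -0.57 ± 0.27, adjusted p = 0.246).

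The translocon gave 2 calls among 6 genes. Sec61alpha, the pore itself (2L, 6477182 to 6480575, minus strand), had 248, 355 and 329.6 normalised CPM in D1, against 158, 192 and 186 in wild type (log2 fold change 0.80 ± 0.21, adjusted p = 0.0373). Sec63 (3L, 7360561 to 7364366, plus strand) had 157, 270.2 and 281 normalised CPM in D1, against 112, 114 and 101 in wild type (log2 fold change 1.11 ± 0.24, adjusted p = 0.0173). Both were higher in every D1 library, by more in replicates 2 and 3. The small channel subunit Sec61beta had 422, 123 and 112 normalised CPM in D1, against 70.5, 79.4 and 77.1 in wild type, the largest log2 fold change of the members at 1.53 ± 0.47, but missed the threshold (adjusted p = 0.0734), with replicate 1 far above the other D1 libraries. Sec61gamma, the other small subunit, had 172, 46.4 and 47.8 normalised CPM in D1, against 43.8, 49.4 and 44.0 in wild type, so that its excess was present in replicate 1 and not in replicates 2 and 3. TRAM, which sits beside the channel, had 152, 153 and 151 normalised CPM in D1, against 188, 209 and 220.1 in wild type, below wild type in all 3 D1 libraries with little spread (adjusted p = 0.183).

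None of the 3 counted signal peptidase subunits passed the test, although their fold changes were all above 0. The catalytic subunit twr had 1024, 578 and 483 normalised CPM in D1, against 399, 435 and 443 in wild type (log2 fold change 0.71 ± 0.28, adjusted p = 0.165). Spase22-23 had 747, 166 and 165 normalised CPM in D1, against 245, 243 and 269.7 in wild type. Replicate 1 was the highest D1 library for both of these and for Spase25, while for Spase22-23 the other D1 libraries lay below wild type.

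The 8 COPII and exit site genes gave no call, and replicate 1 was set apart from its group for most of them. Sec31, the outer coat subunit, had 45.9, 298 and 334 normalised CPM in D1, against 98.0, 112 and 97.4 in wild type. Sec24AB had 14.95, 60.5 and 67.0 normalised CPM in D1, against 48.1, 51.0 and 50.4 in wild type. Tango1, which helps to load bulky cargo, had 47.0, 147 and 152 normalised CPM in D1, against 110.3, 119 and 86.0 in wild type. For these 3 genes the first D1 library lay below every wild-type library and the others above every one, so the groups overlapped. Sar1 had 340.1, 164 and 158 normalised CPM in D1, against 258, 253 and 270.4 in wild type, with the opposite order of the D1 libraries.

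Of the 8 COPI genes, deltaCOP (X, 1859141 to 1861790, minus strand) rose, with 221, 390.0 and 390.3 normalised CPM in D1, against 138, 148 and 143 in wild type (log2 fold change 1.23 ± 0.27, adjusted p = 0.0196). Every D1 library was above every wild-type library. The subunit gammaCOP had 123, 377 and 364 normalised CPM in D1, against 134, 123 and 112 in wild type, and its replicate 1 lay within the wild-type range (log2 fold change 1.23 ± 0.37, adjusted p = 0.0690). For alphaCOP the values were 79.8, 430.4 and 455 normalised CPM in D1, against 201, 182 and 174 in wild type. The small subunit zetaCOP showed the reverse order, with 341, 92.2 and 86.3 normalised CPM in D1, against 140.2, 137 and 146 in wild type. In replicate 1 zetaCOP was thus above and alphaCOP below wild type, and in replicates 2 and 3 the other way round, although both encode subunits of 1 coat.

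No cargo receptor passed the test in D1. The KDEL receptor KdelR, which retrieves escaped ER proteins, had 554, 354 and 343 normalised CPM in D1, against 251, 257 and 245 in wild type (log2 fold change 0.73 ± 0.23, adjusted p = 0.0788). The p24 protein eca had 248, 137 and 118 normalised CPM in D1, against 85.2, 100.2 and 97.9 in wild type. Both were higher in every D1 library than in any wild-type library. The p24 protein opm had 55.6, 23.0 and 30.4 normalised CPM in D1, against 57.1, 59.1 and 58.4 in wild type, lower in every D1 library (adjusted p = 0.304).

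The count of calls turned on single libraries. Without D1 replicate 1, 15 members rose and 3 fell, where 12.7% of 8607 genes tested were higher and 11.6% lower. The count was 0 without D1 replicate 2 or without any one of the 3 wild-type libraries, 2 without D1 replicate 3, miP replicate 1 or miP replicate 2, and 3 without miP replicate 3. Each of these fits also rests on fewer libraries. With D1 replicates 2 and 3 alone, gammaCOP (log2 fold change 1.59 ± 0.17, adjusted p = 1.21e-04), Sec31 (1.63 ± 0.18, adjusted p = 1.66e-04), Sec16 (1.29 ± 0.17, adjusted p = 5.17e-04) and alphaCOP (1.25 ± 0.18, adjusted p = 9.43e-04) rose in edgeR's test. The calls then included 5 of 8 COPI genes and 4 of 8 COPII genes, along with Srp9, Srp68, Sec61alpha, Sec61beta, Sec63 and KdelR. Sar1, SrpRbeta and opm fell, with log2 fold changes of -0.70 ± 0.19, -0.82 ± 0.22 and -1.13 ± 0.28. The 4 members called over all D1 libraries were higher in this fit too. With replicate 1 of both mutants left out, 19 members were higher and 10 lower in D1, where 16.6 and 16.9% of genes tested were. DESeq2 on all sorted libraries called 9 members higher and none lower, with 10.4 and 5.39% of genes.

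**Figure D2:**
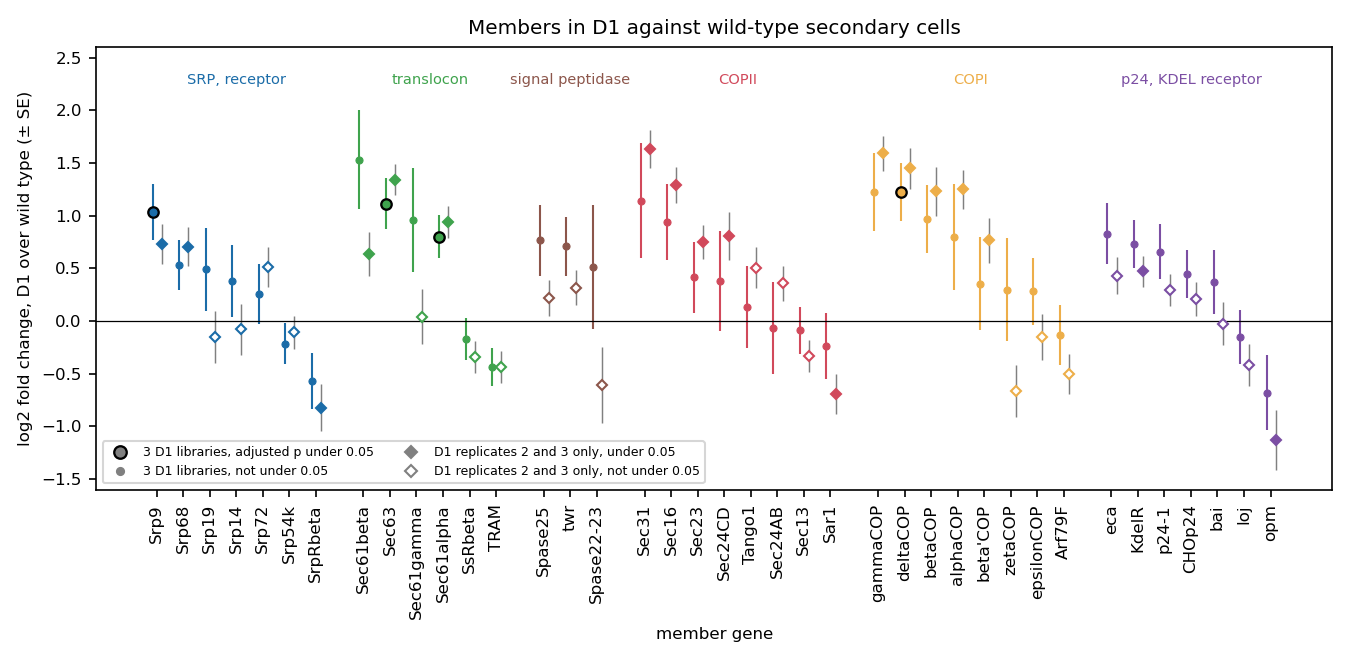
Log2 fold changes of the 39 members in D1 over wild type, with standard errors, grouped by role. Circles are the fit over 3 D1 libraries (black rim, adjusted p under 0.05; 4 genes) and diamonds the fit with D1 replicates 2 and 3 only (filled, adjusted p under 0.05; 15 higher and 3 lower); the longer coat genes shift up between them and genes such as Sec61gamma and Spase22-23 shift down.

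The split between D1 libraries followed the exonic length of the genes. Over the 39 members, the deviation of each D1 library from the wild-type mean (log2 normalised CPM) had a Spearman rho with exonic length of -0.77 in replicate 1, 0.43 in replicate 2 and 0.56 in replicate 3. Over 8177 genes the values were -0.38, 0.37 and 0.46, so the trend was not particular to these members. The 15 members under 1500 nt had a median deviation of 1.24 in D1 replicate 1, with 14 above 0, and the 9 members of 3000 nt or more had -1.14, with 2 above 0. In replicates 2 and 3 those 9 long genes had medians of 1.17 and 1.21, with 9 of 9 above 0 in each, while the short genes had 0.12 and -0.17. Replicates 2 and 3 of miP leaned the same way as those of D1, with rho of 0.57 and 0.80, and miP replicate 1 leaned the other way, with rho of -0.50 (-0.03 over all genes), over small deviations that put every member within -0.21 and 0.32 of the wild-type mean. Within wild type rho was 0.49, -0.05 and -0.49, over deviations of at most 0.41 in size. These are descriptions across genes that share their libraries, and no p is given.

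**Figure D3:**
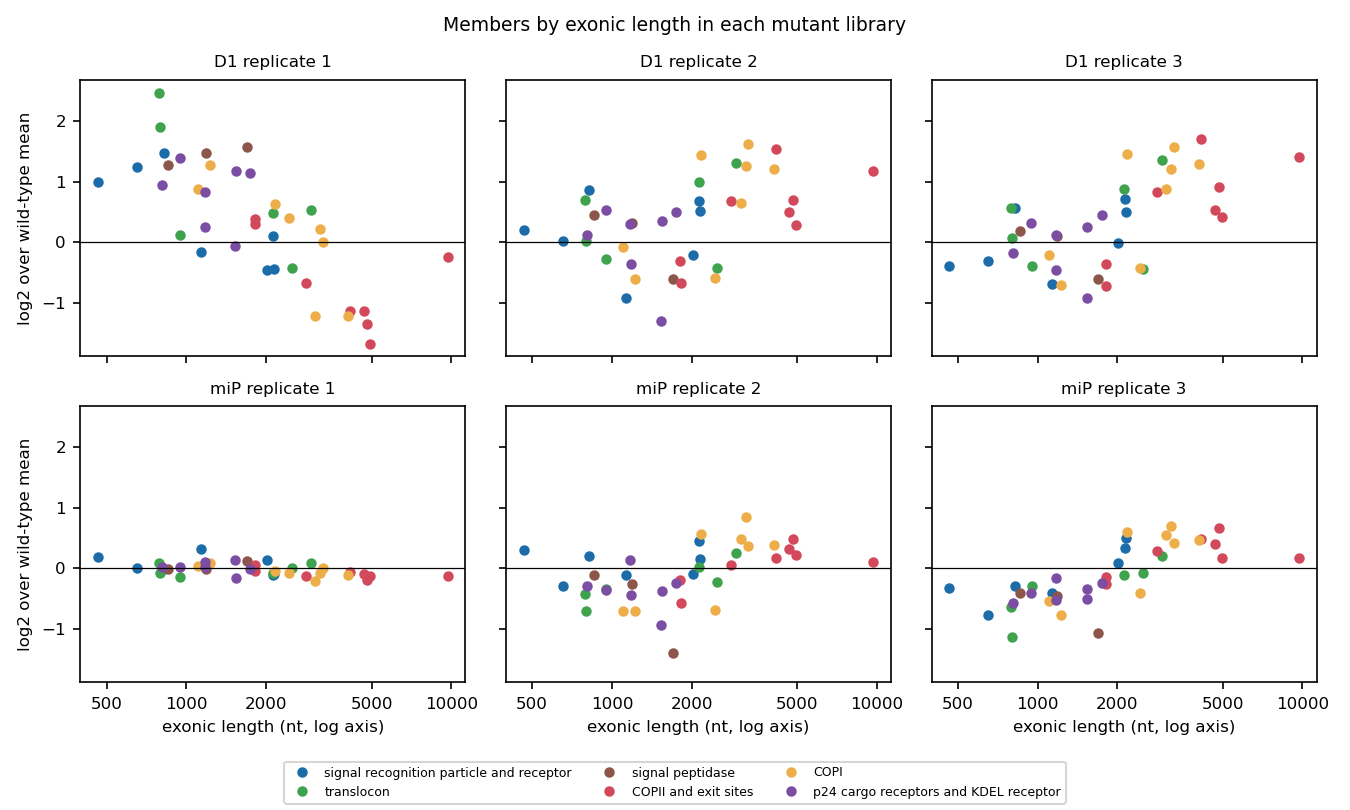
Deviation of each of the 39 members from its wild-type mean (log2 normalised CPM) against exonic length (log axis) in each D1 and miP library, coloured by role. Points slope down in D1 replicate 1 (rho -0.77), up in D1 replicates 2 and 3 (0.43 and 0.56) and up in miP replicates 2 and 3 (0.57 and 0.80), and slope down slightly near 0 in miP replicate 1 (-0.50).

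Ratios between subunits of 1 complex show this without any scaling between libraries, though not in every pair. These ratios were chosen after the values were seen and carry no test. The counts of Sec61beta over those of Sec61alpha, in the order of the replicates, were 1.70, 0.347 and 0.339 in D1, 0.478, 0.309 and 0.293 in miP, 2.58, 1.69 and 1.57 in the ribosome IPs, 1.52 in the control IP and 0.446, 0.414 and 0.414 in wild type. For alphaCOP over zetaCOP they were 0.234, 4.67 and 5.27 in D1, 1.14, 2.80 and 3.08 in miP, 0.143, 0.162 and 0.204 in the ribosome IPs, 0.281 in the control IP and 1.43, 1.33 and 1.19 in wild type. D1 replicate 1 was thus nearer to the IP libraries than to the other D1 libraries in both ratios. Sec61gamma over Sec61alpha gave 0.694, 0.1305 and 0.145 in D1 and 0.277, 0.258 and 0.236 in wild type. Srp72 over Srp9 gave 0.5085, 1.515 and 1.855 in D1, 1.82, 1.88 and 3.35 in miP, and 1.88, 2.16 and 1.8 in wild type. In that pair D1 replicates 2 and 3 did not exceed the wild-type range. For the paralogs Sec24CD (4827 nt) and Sec24AB (4951 nt), of similar length, the ratio was 3.39, 3.50 and 3.67 in D1, 2.50, 3.16 and 3.68 in miP, 0.191, 0.585 and 0.432 in the ribosome IPs, 0.542 in the control IP and 2.66, 2.84 and 2.37 in wild type. D1 replicate 1 lay near the other D1 libraries in this ratio, while in miP replicate 1 lay within the wild-type range and replicates 2 and 3 above it, and every IP lay below all sorted libraries.

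**Figure D4:**
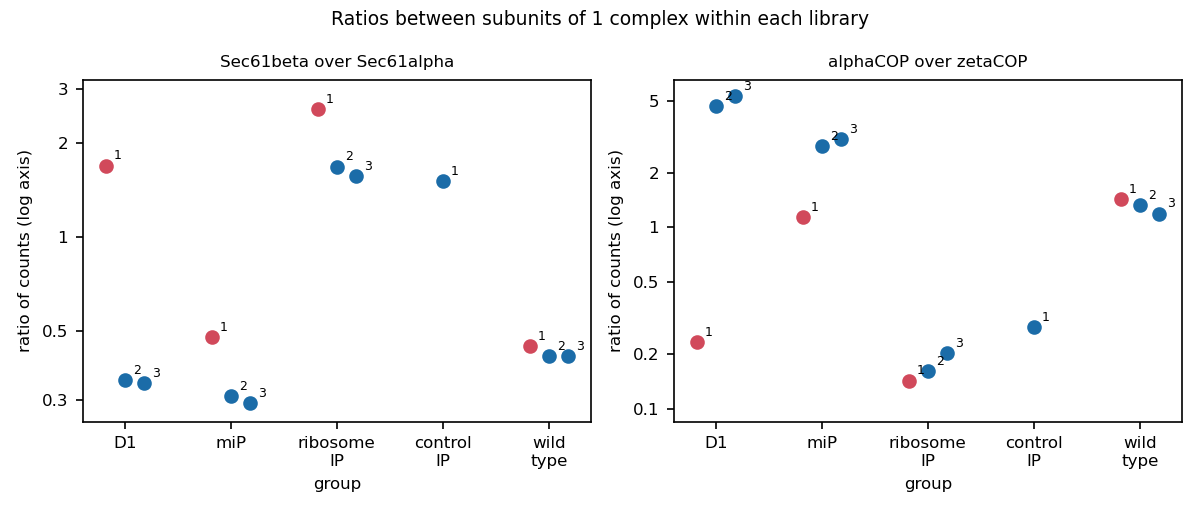
Ratio of counts within each library (log axis) for Sec61beta over Sec61alpha and for alphaCOP over zetaCOP, by group, with the replicate number beside each point and replicate 1 of the groups of 3 in red. D1 replicate 1 stands at 1.70 and 0.234, against 0.347 and 0.339 and 4.67 and 5.27 in the other D1 libraries.

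With the fold changes taken against a trend with exonic length in each library, an alternative added after these values were seen, 16 members rose in D1 and none fell, where 10.2% of genes tested rose and 7.01% fell. With that trend the members' median lay 0.57 above that of all genes, against 0.44 with the single scaling factor and 0.51 with library totals alone. Scaling by library totals alone moved the median of all genes by 0.70 and called 20 members higher and none lower, with 17.6% of genes higher and 1.41% lower.

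The miP comparison asks which transcripts depend on MSAmiP, a micropeptide encoded by the iab-8 transcript. No member passed the test in either direction (edgeR's quasi-likelihood test), none was at an unadjusted p under 0.05, and DESeq2 called none, where it called 0.109% of genes higher and 0.316% lower. Of the 8222 genes tested 0.0243% were higher and 0.0608% lower, so calls were rare throughout. The members' median log2 fold change was -0.06, and the values ran from -0.63 ± 0.59 for Spase22-23 to 0.54 ± 0.32 for betaCOP. All 3 miP libraries lay above wild type for 1 member, Sec63, and below it for 4, Sec61gamma, SsRbeta, Arf79F and p24-1, where 6.28 and 7.67% of all genes tested did so. Sec61gamma had 43.1, 27.5 and 20.4 normalised CPM in miP, against 43.8, 49.4 and 44.0 in wild type, and betaCOP had 213, 404 and 365, against 213, 226 and 236. Replicate 1 lay within 0.32 of wild type in both, and the differences came from replicates 2 and 3.

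Without replicate 1 of both mutants, 6 members were higher in miP and 8 lower, where 4.23% of genes tested were higher and 7.4% lower. The 6 were betaCOP (0.77 ± 0.10, adjusted p = 0.00263 in edgeR's test), deltaCOP (0.58 ± 0.09), Sec24CD (0.57 ± 0.12), beta'COP (0.52 ± 0.10), alphaCOP (0.41 ± 0.10) and gammaCOP (0.39 ± 0.11), as log2 fold changes. The 8 included Spase22-23 (-1.23 ± 0.13, adjusted p = 0.00162), Sec61gamma (-0.94 ± 0.16), zetaCOP (-0.74 ± 0.10) and epsilonCOP (-0.64 ± 0.12), and the rest were opm, Arf79F, Sec61beta and loj. Large COPI subunits were thus higher and small ones lower. Over all miP libraries the log2 fold change had a rho of 0.67 with exonic length over the members and 0.38 over all genes, and with the trend in exonic length taken out no member was called in either direction, where 0.0245 and 0.0734% of genes were.

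Between the mutants, 7 members were higher in D1 than in miP and none lower, where 6.74% of genes tested were higher and 3.81% lower. All 3 D1 libraries lay above all 3 miP libraries for 11 members and below them for 1, where 14.3 and 12.5% of all genes tested did so. On the TMM scale neuron markers summed to 68.5 to 149.8 CPM in D1 and 12.5 to 16.3 in miP, muscle sheath markers to 107 to 165 in D1 and 81.1 to 87.5 in miP, and main cell markers to 282 to 1388 in D1 and 121 to 323 in miP. The first 2 sums did not overlap. Secondary cell markers summed to 1.459e+05 to 2.175e+05 in D1 and 3.073e+05 to 3.323e+05 in miP, also without overlap. The part of cell content in the calls was not tested. These are the same D1 libraries as in the comparison with wild type, and the 2 comparisons are not independent. Sec61beta had 422, 123 and 112 normalised CPM in D1 and 80.7, 56.1 and 48.5 in miP, a log2 fold change of 1.82 ± 0.48 (adjusted p = 0.0369). Sec61alpha had 248, 355 and 329.6, against 169, 182 and 166 (0.86 ± 0.21, adjusted p = 0.0262), and neither overlapped. Srp9 (1.05 ± 0.26, adjusted p = 0.0310) and Sec63 (0.93 ± 0.24, adjusted p = 0.0372) were called here as against wild type; in miP Srp9 had 43.9, 50.8 and 36.1 and Sec63 117, 130.2 and 125 normalised CPM.

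The other 3 calls were KdelR and the p24 proteins eca and p24-1. KdelR had 554, 354 and 343 normalised CPM in D1 and 250.2, 214 and 213 in miP, a log2 fold change of 0.89 ± 0.23 (adjusted p = 0.0365). The p24 protein eca had 248, 137 and 118, against 95.5, 73.8 and 70.8 (1.07 ± 0.29, adjusted p = 0.0446), and p24-1 had 173, 96.8 and 90.7, against 68.0, 58.9 and 59.8 (0.95 ± 0.26, adjusted p = 0.0465). Every D1 library was above every miP library for all 7 genes. The replicate numbers paired the libraries of D1 and miP, and with the replicate number as a block p24-1 was no longer called (adjusted p = 0.0503) and deltaCOP was (log2 fold change 0.81 ± 0.21, adjusted p = 0.0461). The count was 0 without any one of the miP or wild-type libraries, 1 without D1 replicate 2 and 8 without D1 replicate 3, and 13 higher and 1 lower without D1 replicate 1 (10.5 and 7.13% of genes tested). Without replicate 1 of both mutants it was 19 higher and 1 lower (11.8 and 8.58%), with the trend in exonic length taken out 13 and 1 (10.6 and 7.75%), with library totals alone 14 and 0 (12.6 and 1.53%), and in DESeq2 11 and 0 (10.4 and 6.58%).

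The ribosome IPs hold RNA precipitated with GFP-tagged ribosomes of secondary cells, and the sorted wild-type libraries hold the RNA of purified cells. Relative to all genes, the members' fold changes over sorted cells were low. Their level in the ribosome IPs was not, with a median percentile of 81.9, against 92.8 in wild type. With TMM scaling 2 members were higher in the IPs than in sorted cells and 35 lower, where 49.1% of the 11621 genes tested were higher and 31.5% lower. The members' median log2 fold change was -1.36, against 0.76 over all genes, and 2 of 39 members lay above that all-gene median. All 3 IPs lay above all sorted libraries for 2 members and below them for 35, where 50.9 and 33.7% of all genes tested did so. Scaling by library totals alone moved the all-gene median to 2.33 and the members' to 0.22, with 18 members higher and 11 lower and 70.2 and 10.3% of genes, so the sign of a member's change rests on the scaling. The gap between the medians was -2.13 with TMM and -2.11 with library totals alone. DESeq2 called 3 members higher and 30 lower, with 53.2 and 27.3% of genes, and with its RLE factors Srp14, Srp19, Spase22-23, zetaCOP and bai were below 0 without a call.

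The IP libraries also differed in cell content. Main cell markers (9 of 10 with counts) summed to 8524 to 1.17e+04 CPM in the ribosome IPs, 1.87e+04 in the control IP and 80.1 to 573 in wild type, and testis and sperm markers (8 of 8) to 8909 to 9847, 1.49e+04 and 1.79 to 2.50 CPM. Secondary cell markers (8 of 8) summed to 2.04e+04 to 5.73e+04 CPM in the ribosome IPs, 5091 in the control IP and 2.67e+05 to 2.81e+05 in wild type. The part of other cells' RNA in the differences below was not tested.

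The log2 fold change against sorted cells was lower for longer genes, with a rho of -0.79 over the members and -0.42 over 11568 genes. Members under 1500 nt had a median of -0.68, against 3.33 over all genes of that length, and members of 3000 nt or more had -3.49, against -0.81. The lowest values were those of beta'COP (-4.20 ± 0.20, adjusted p = 1.76e-07 in edgeR's test), Sec24CD (-3.69 ± 0.32), Sec16 (-3.63 ± 0.21), alphaCOP (-3.50 ± 0.18) and Tango1 (-3.49 ± 0.23). With the trend in exonic length taken out, 39 of 39 members were lower, where 43.1% of genes tested were lower and 38.7% higher. All values per library below are TMM-scaled within these 6 libraries.

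Among SRP and receptor genes 6 of 7 were lower in the IPs. Srp72 had 14.3, 14.1 and 16.4 normalised CPM in the ribosome IPs and 104, 131 and 126 in sorted cells. Srp68 had 15.8, 16.6 and 21.0 normalised CPM in the ribosome IPs and 68.5, 74.8 and 73.4 in sorted cells. Srp54k had 50.4, 64.0 and 68.5 normalised CPM in the ribosome IPs and 159.9, 152 and 162 in sorted cells. The protein core pair and the GTPase that binds signal sequences were lower in every IP. SrpRbeta had 34.6, 39.00 and 41.2 normalised CPM in the ribosome IPs and 61.7, 62.0 and 63.0 in sorted cells, Srp19 22.7, 22.1 and 21.5 in the IPs and 27.9, 36.0 and 37.2 in sorted cells, and Srp14 42.8, 37.5 and 41.1 in the IPs and 48.0, 62.8 and 60.8 in sorted cells. The smallest genes thus differed least. Srp9 did not pass (log2 fold change 0.02 ± 0.21, adjusted p = 0.924), and Srp14 was called in 2 of 6 fits with 1 library left out, with adjusted p up to 0.108.

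The translocon held the 2 members that were higher. Sec61gamma had 129, 153 and 158 normalised CPM in the ribosome IPs and 58.9, 68.9 and 64.4 in sorted cells (log2 fold change 1.20 ± 0.17, adjusted p = 1.99e-04). Sec61beta had 206, 172 and 174 normalised CPM in the ribosome IPs and 94.8, 111 and 113 in sorted cells (0.79 ± 0.17, adjusted p = 0.00254). Both small subunits were above sorted cells in every IP, and both turned lower when the trend in exonic length was taken out, at -1.72 for Sec61gamma and -2.15 for Sec61beta. Sec61alpha had 79.7, 102 and 111 normalised CPM in the ribosome IPs and 213, 267 and 273 in sorted cells. Sec63 had 65.8, 78.5 and 69.5 normalised CPM in the ribosome IPs and 150.1, 159 and 149 in sorted cells. TRAM had 57.2, 102 and 90.9 normalised CPM in the ribosome IPs and 252, 291 and 323 in sorted cells. The channel's large subunit and both of its partners were thus lower in every IP, while SsRbeta, of the translocon-associated complex, did not pass (0.27 ± 0.17, adjusted p = 0.173).

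All 3 signal peptidase subunits were lower with TMM scaling and above 0 with library totals alone. The catalytic subunit twr had 217, 273 and 241 normalised CPM in the ribosome IPs and 537, 607 and 649 in sorted cells. Spase25 had 149, 137 and 122 normalised CPM in the ribosome IPs and 267, 269 and 281 in sorted cells. Spase22-23 had 266, 232 and 164 normalised CPM in the ribosome IPs and 329, 339 and 395 in sorted cells. No IP library reached the sorted cells in any of them.

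All 8 COPII and exit site genes were lower, with a median log2 fold change of -2.92. Sec24CD had 7.75, 17.2 and 17.4 normalised CPM in the ribosome IPs and 172, 202 and 175 in sorted cells. Sec16 had 4.99, 6.01 and 7.65 normalised CPM in the ribosome IPs and 83.3, 77.5 and 70.8 in sorted cells. Tango1 had 12.3, 16.2 and 10.6 normalised CPM in the ribosome IPs and 148, 166 and 126 in sorted cells. These exit site and cargo adaptor genes stood lowest of the group. Sec31 had 14.2, 12.0 and 22.9 normalised CPM in the ribosome IPs and 132, 156 and 143 in sorted cells. Its partner Sec13 had 79.5, 105 and 111 normalised CPM in the ribosome IPs and 260.2, 304 and 332 in sorted cells. Sec23 had 45.3, 37.0 and 42.2 normalised CPM in the ribosome IPs and 256, 270.4 and 283 in sorted cells. Inner and outer coat genes were all below sorted cells in every IP. Sec24AB had 40.7, 29.4 and 40.2 normalised CPM in the ribosome IPs and 64.6, 71.1 and 73.8 in sorted cells. Sar1 had 217, 229 and 184 normalised CPM in the ribosome IPs and 347, 353 and 396 in sorted cells. Sec24AB differed by -0.93 ± 0.18 and its paralog Sec24CD, of nearly the same length, by -3.69 ± 0.32.

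All 8 COPI genes were lower as well, with a median of -2.02. The largest difference was in beta'COP, which had 27.9, 32.5 and 32.2 normalised CPM in the ribosome IPs and 558, 583 and 563 in sorted cells. alphaCOP had 22.5, 21.6 and 25.0 normalised CPM in the ribosome IPs and 270.3, 254 and 255 in sorted cells. gammaCOP had 21.5, 23.99 and 31.0 normalised CPM in the ribosome IPs and 181, 172 and 164 in sorted cells. These are large coat subunits. betaCOP had 64.1, 65.9 and 52.9 normalised CPM in the ribosome IPs and 286, 315 and 346 in sorted cells. deltaCOP had 53.7, 67.6 and 82.4 normalised CPM in the ribosome IPs and 186, 206 and 209 in sorted cells. epsilonCOP had 52.1, 63.7 and 47.3 normalised CPM in the ribosome IPs and 145, 139 and 142 in sorted cells. No IP reached the sorted cells in these subunits either. Arf79F had 216, 209.8 and 203 normalised CPM in the ribosome IPs and 665, 640.4 and 677 in sorted cells. zetaCOP had 157, 134 and 123 normalised CPM in the ribosome IPs and 189, 191 and 214 in sorted cells. The small subunit zetaCOP differed least, with -0.52 ± 0.18 (adjusted p = 0.0222).

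The 7 cargo receptors were lower too. opm had 11.1, 10.2 and 8.86 normalised CPM in the ribosome IPs and 76.8, 82.3 and 85.6 in sorted cells, with the largest difference of the group at -3.02 ± 0.17. loj had 34.6, 34.8 and 46.3 normalised CPM in the ribosome IPs and 101, 105 and 111 in sorted cells. CHOp24 had 107, 116 and 106 normalised CPM in the ribosome IPs and 211, 255 and 259.7 in sorted cells. All of these carry cargo or escort it between ER and Golgi as p24 complexes. Next came p24-1, with 54.4, 49.5 and 47.4 normalised CPM in the ribosome IPs and 96.5, 110.0 and 114 in sorted cells. KdelR had 169, 194 and 174 normalised CPM in the ribosome IPs and 338, 358 and 359.7 in sorted cells. Their log2 fold changes lay between -1.45 ± 0.18 and -0.98 ± 0.17, with every IP below sorted cells. eca had 81.5, 78.9 and 70.7 normalised CPM in the ribosome IPs and 114.6, 139.7 and 143 in sorted cells. bai had 149, 211 and 204 normalised CPM in the ribosome IPs and 252, 332 and 320.4 in sorted cells, the smallest difference of the group at -0.68 ± 0.21.

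**Figure D5:**
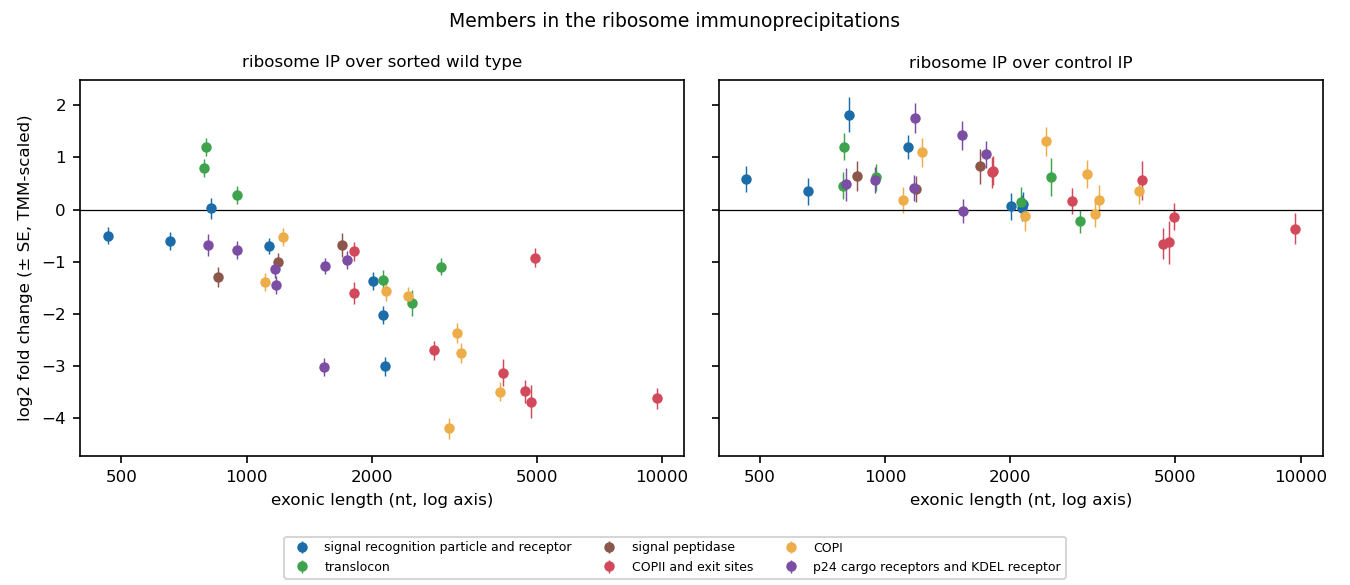
Log2 fold changes (± SE, TMM-scaled) of the 39 members against exonic length (log axis), for the ribosome IPs over sorted wild type on the left and over the control IP on the right, coloured by role. On the left the values slope down from Sec61gamma at 1.20 to beta'COP at -4.20, and on the right they lie between -0.65 and 1.82.

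The control IP came from males whose GFP was not fused to a ribosomal protein, and gives the RNA precipitated without tagged ribosomes. Against it 6 members were higher in the ribosome IPs and none lower, where 6.01% of the 13165 genes tested were higher and 0.433% lower. The single control library was assumed to vary like the other groups. The members' median log2 fold change was 0.45, against 0.17 over all genes, with 26 of 39 members above the all-gene median. That gap of 0.28 was the same to 2 decimals with RLE factors, upper-quartile factors and library totals alone, but those scalings called 2, 5 and 0 members. With library totals alone 2.49% of genes were higher and 1.19% lower, with the trend in exonic length taken out (2 members higher) 3.16 and 0.855%, and in DESeq2 (8 members higher) 6.81 and 3.62%.

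The calls came from all but the signal peptidase and COPII groups. Srp9 had 88.5, 55.0 and 70.1 normalised CPM in the ribosome IPs, against 20.1 in the control IP (log2 fold change 1.82 ± 0.34, adjusted p = 0.0187 in edgeR's test). The p24 protein loj had 38.96, 39.4 and 52.1 normalised CPM in the ribosome IPs, against 12.9 in the control IP (1.75 ± 0.29, adjusted p = 0.0125). These were the only members called in all 6 fits with 1 library left out. The p24 protein opm had 12.5, 11.5 and 9.98 normalised CPM in the ribosome IPs, against 4.21 in the control IP (1.43 ± 0.28, adjusted p = 0.0229). The GTPase Arf79F had 243, 237 and 229 normalised CPM in the ribosome IPs, against 95.5 in the control IP (1.31 ± 0.27, adjusted p = 0.0268). Every ribosome IP was above the control in each. Sec61gamma had 145, 173 and 178 normalised CPM in the ribosome IPs, against 71.9 in the control IP (1.20 ± 0.26, adjusted p = 0.0316). SrpRbeta had 38.9, 44.1 and 46.5 normalised CPM in the ribosome IPs, against 18.8 in the control IP (1.20 ± 0.24, adjusted p = 0.0238). Both kept the order of the groups in every library. Wild-type libraries are in neither group compared here, and enter through the filter, the scaling and the estimate of the spread. Without wild-type replicate 2 or replicate 3, Srp9 and loj were the 2 members called. Sec61gamma and Arf79F were also lost without ribosome IP replicate 2 or 3, at adjusted p of at most 0.0676 and 0.0643 in edgeR's test. The fit of the ribosome and control IPs alone called 1 member.

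Other genes of the same route were read from lists of 16 translocation partners, 20 coat regulators and ER-Golgi tethering and fusion genes, and 6 regulators. In D1, 2 of the 16 partners rose, none fell, and the median was 0.11 on the log2 scale, where 6.14% of all genes tested rose and 3.62% fell. Trp1, the fly's Sec62 and a partner of Sec63, had a mean of 407 normalised CPM in D1 and 188 in wild type (1.11 ± 0.20, adjusted p = 0.00566 in edgeR's test), and Spp, which cleaves signal peptides within the membrane, had 976 in D1 and 459.8 in wild type (1.09 ± 0.29, adjusted p = 0.0406). Of the 20 coat regulators 1 rose, no more than the share over all genes, none fell, and the median was 0.39. It was the SNARE Sec22, with 209 normalised CPM in D1 and 122 in wild type (0.77 ± 0.19, adjusted p = 0.0301). In miP none of the 3 lists had a call. Trp1 (1.08 ± 0.20) and Sec22 (0.94 ± 0.19) were the only genes of the 3 lists called between D1 and miP, higher in D1 as were 6.74% of all genes tested, with adjusted p of 0.00628 and 0.0113. Without D1 replicate 1 the counts against wild type were 2 higher and 4 lower among partners, 7 and 2 among coat regulators and 2 and 0 among regulators, where 12.7% of all genes tested were higher and 11.6% lower.

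Of the 6 regulators, Ire1, the ER stress sensor that splices Xbp1 mRNA, rose in D1. It had 59.0, 219.8 and 231 normalised CPM in D1, against 54.1, 42.1 and 34.5 in wild type (1.96 ± 0.45, adjusted p = 0.0224 in edgeR's test), and replicate 1 lay far below the other D1 libraries. CrebA had 256, 149.9 and 199, against 147, 132 and 139 (0.53 ± 0.24, adjusted p = 0.223), above wild type in each D1 library without passing the test. Xbp1 had 286, 498 and 466, against 556, 513 and 508 (-0.34 ± 0.25, adjusted p = 0.488). The stress-response factors Atf6 (0.45 ± 0.23) and crc (-0.01 ± 0.21), which is the fly's ATF4, and the kinase PEK (0.71 ± 0.40) did not pass, with adjusted p of 0.280, 0.988 and 0.338.

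Against sorted cells the ribosome IPs had 2 partners higher and 4 lower with TMM scaling, 2 coat regulators higher and 16 lower, and 6 of 6 regulators lower, where 49.1% of all genes tested were higher and 31.5% lower. ArfGAP1, which triggers uncoating of COPI, was the lowest of the coat regulators at -2.99 ± 0.20 (adjusted p = 1.40e-06 in edgeR's test), and cni, a cargo receptor, the highest at 1.31 ± 0.16 (adjusted p = 7.31e-05). Spp was the lowest of the partners at -2.15 ± 0.29 and EMC5, of an insertion complex of the ER membrane, the highest at 0.62 ± 0.21. Among the regulators Atf6 was lowest at -3.21 ± 0.15, Xbp1 stood at -3.12 ± 0.24, CrebA at -2.94 ± 0.18, Ire1 at -2.58 ± 0.22, PEK at -1.81 ± 0.21 and crc highest at -0.88 ± 0.23. With library totals alone 13 partners were higher and none lower, 6 coat regulators higher and 5 lower, and 1 regulator higher and 4 lower, where 70.2% of all genes tested were higher and 10.3% lower. Against the control IP, Trp1 (1.28 ± 0.27), EMC3 (1.12 ± 0.23), EMC6 (1.43 ± 0.30) and Atf6 (1.21 ± 0.26) were higher, where 6.01% of all genes tested were, with adjusted p between 0.0268 and 0.0304, and no coat regulator was called. With library totals alone none of these 4 was called and 2 coat regulators were lower.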

How the data were processed

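The authors' deposited table holds raw counts of reads per gene for 13 libraries. Per the labels' protocols, RNA (2 ng) was primed on poly(A) tails, amplified and tagmented without strand marks, and 100 nt single reads were sequenced; per the submitters' processing notes they were aligned with STAR and counted with HTSeq on dm6, with versions and strand setting not given in the sources used here. Counts were scaled by TMM and tested with edgeR's quasi-likelihood test (edgeR 4.0.16, R 4.3.3; filterByExpr; Benjamini-Hochberg adjusted p, threshold 0.05) in 3 fits: the 9 sorted libraries, ribosome IPs with wild type, and both IPs with wild type. DESeq2 1.42.0 was an alternative. The test was checked on simulated counts with no trend in exonic length and no outlying replicate, so the check does not cover those features. The labels call the libraries biological replicates. Each member past the threshold in any comparison is named. Members and lists were chosen with earlier results of these data known.

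Exonic lengths came from Ensembl release 115; 12512 symbols matched directly, 4062 by synonym and 153 not at all. Deviations are log2(normalised CPM + 1). Same-numbered D1 and miP libraries deviated together (r = 0.596, 0.304 and 0.44 for replicates 1, 2 and 3), which pairs those groups from the data and not from the labels. Depth limits low counts, which matters most in the control IP.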

Additional observations from a re-analysis of the deposited data

How the results depend on the processing

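In D1 against wild type, 4 members higher became 20 with library totals alone, 9 in DESeq2, 16 with the trend in exonic length taken out, 2 with D1 and wild type alone, and 19 higher and 10 lower without replicate 1 of both mutants. Leaving out 1 library gave 0 to 15 higher and 0 to 3 lower. In miP against wild type, leaving out replicate 1 of both mutants gave 6 higher and 8 lower, and leaving out 1 library gave 0 and 0. In D1 against miP, 7 higher became 4 with upper-quartile factors, 14 with library totals alone, 11 in DESeq2, 13 (and 1 lower) with the length trend taken out, 19 (and 1 lower) without replicate 1 of both mutants and 0 with the 2 groups alone, and leaving out 1 library gave 0 to 13 higher and 0 to 1 lower. In the ribosome IPs against sorted wild type, 2 higher and 35 lower became 18 and 11 with library totals alone, 0 higher with the length trend taken out and 1 higher in a fit of all 13 libraries, and leaving out 1 library gave 2 to 3 higher and 31 to 35 lower. Against the control IP, 6 higher became 2 with RLE factors, 0 with library totals alone, 2 with the length trend taken out and 1 with the IPs alone, and leaving out 1 library gave 2 to 8 higher and 0 lower.

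Across alternatives, the named members kept their call in 48 values and lost it in 28 in D1 against wild type, in 73 and 61 in D1 against miP, and in 52 and 32 against the control IP, with no sign turned. Against sorted wild type 499 kept it, 35 lost it and 22 changed sign. With library totals alone the log2 fold change was 1.07 for Srp14, 0.97 for Srp19, 0.20 for Srp54k, 0.87 for SrpRbeta, 0.22 for Sec61alpha, 0.47 for Sec63, 0.56 for Spase25, 0.87 for Spase22-23, 0.28 for twr, 0.76 for Sar1, 0.65 for Sec24AB, 0.025 for deltaCOP, 0.18 for epsilonCOP, 1.04 for zetaCOP, 0.48 for p24-1, 0.90 for bai, 0.43 for CHOp24, 0.78 for eca, 0.13 for loj and 0.59 for KdelR. That scaling leaves out the TMM factors, which differ between IPs and sorted cells. With the length trend taken out, Sec61beta stood at -2.15 and Sec61gamma at -1.72. The causes of the other changes were not tested.

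With the replicate number as a block, 4 members were higher in D1 against wild type, 0 in miP against wild type, 7 in D1 against miP, and 2 higher and 32 lower in the ribosome IPs against sorted wild type. Same-numbered libraries did not deviate together in D1 and wild type (r = -0.22, -0.0124 and -0.254) or ribosome IP and wild type (-0.00532, 0.0661 and -0.0671). In miP and wild type r differed between replicates, at 0.0348, 0.298 and -0.239. Removing the filter on low counts or requiring 5 CPM, and upper-quartile factors where not given above, left each count within 1.5 times. The control IP is 1 library of 3701155 counts, and its spread could not be measured.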
